A study of Mus musculus with 12 samples.

Results

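The proteasome subunit genes were taken as the genes whose symbol starts with Psma, Psmb, Psmc or Psmd, leaving out the 3 interferon-inducible subunits Psmb8, Psmb9 and Psmb10. The rule found 36 of the 12255 genes measured by a probe set with exactly 1 gene symbol, and each gene is represented by its probe set of highest mean over the 12 arrays. Of these 36, 15 encode the core ring and 17 encode the regulatory cap. A further 3 (Psmd5, Psmd9 and Psmd10) encode chaperones that assemble the cap, and Psmc3ip, a meiotic recombination factor named for binding Psmc3, is not a subunit. The rule used no measured difference between groups, though it was set with earlier results of these data known.

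The study asked how GW8510, a putative CDK2 inhibitor, acts on mouse alpha cells to raise insulin expression. Cells of the alpha-cell line aTC1 and of the beta-cell line bTC3 were kept for 5 days in 3.3 µM GW8510 or in vehicle, and all 4 groups, GW8510 groups included, held 0.1% DMSO. Each of the 4 groups had 3 biological replicates, each with its own Affymetrix mouse expression array of total RNA. Culture conditions are stated for aTC1 only. Both lines are tumor lines that were derived from transgenic mice carrying a viral oncogene under a glucagon or an insulin promoter, so each group describes 1 cultured line rather than islet cells. In bulk RNA, less RNA per cell and fewer cells of a kind cannot be told apart.

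The proteasome is the main protease of the cytosol and nucleus, and it degrades proteins tagged with ubiquitin chains. Its core is a barrel of stacked rings. Alpha subunits (Psma) form the outer rings and the gate, and beta subunits (Psmb) form the inner rings that hold the proteolytic sites of Psmb5, Psmb6 and Psmb7. The cap (Psmc and Psmd) binds and unfolds the substrate. Its base carries the 6 ATPases Psmc1 to Psmc6 with the scaffolds Psmd1 and Psmd2 and the ubiquitin receptor Psmd4, and its lid carries the deubiquitinase Psmd14. Subunits are needed in fixed proportions, and in mammalian cells the transcription factor NRF1, encoded by Nfe2l1, raises their genes together when proteasome activity is short.

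Promoter windows of RefSeq (build GRCm38.p6, 250 bases before to 50 after the start of a gene) were matched for 29 of the 36 genes, in 31 windows. The 250 bases before the start were searched on both strands for 3 short motifs, each on its own, so that a window may hold more than 1. CGGAAG, a core that ETS family factors recognize, was found for 16 of the 29 genes (55.2%), against 24.3% of 9783 genes tested on the arrays and 15.3% of 27025 genes in the table. CCAAT, the box bound by NF-Y, was found for 12 (41.4%, against 39.7% of the genes tested on the arrays). TGACNNNGC, the fixed letters of the antioxidant response element, which NRF1 and NRF2 bind with small MAF partners, was found for 5 (17.2%, against 13.6%). These 5 genes were Psmb5, Psmb6, Psmc6, Psmd9 and Psmd12. A match describes the letters only and is no evidence of binding. The 70-base windows below were picked among genes that hold a match. These genes differed most between the lines, rose in both lines (Psmd8) or differed in response. Of other such genes, Psmc5 held none of the 3 motifs, and Psmd3 and Psmb2 had no matched window. The windows run 5′ to 3′ on the strand of the gene, with the match in capitals. In order, they lie at chr11:70525287-70525356 (plus strand), chr14:54618004-54618073 (minus), chr14:45329574-45329643 (plus), chr11:107479278-107479347 (plus), chr14:14120952-14121021 (minus), chr7:29180674-29180743 (minus), chr1:86064515-86064584 (plus) and chr3:95042701-95042770 (minus). Psmc6, Psmd12 and Psmd8 carry the match on the opposite strand, so that its reverse complement is in capitals. The first 4 show TGACNNNGC and the last 4 show CGGAAG.
Psmb6: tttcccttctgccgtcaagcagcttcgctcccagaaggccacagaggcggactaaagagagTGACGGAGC
Psmb5: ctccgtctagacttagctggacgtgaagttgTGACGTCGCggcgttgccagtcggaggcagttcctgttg
Psmc6: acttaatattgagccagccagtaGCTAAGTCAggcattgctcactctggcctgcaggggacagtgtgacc
Psmd12: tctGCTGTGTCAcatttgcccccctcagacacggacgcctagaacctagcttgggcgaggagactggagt
Psmd6: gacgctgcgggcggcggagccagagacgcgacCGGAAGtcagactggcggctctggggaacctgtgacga
Psmd8: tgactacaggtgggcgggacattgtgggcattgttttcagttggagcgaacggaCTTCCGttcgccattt
Psmd1: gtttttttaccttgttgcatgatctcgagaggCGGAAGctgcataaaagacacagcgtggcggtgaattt
Psmd4: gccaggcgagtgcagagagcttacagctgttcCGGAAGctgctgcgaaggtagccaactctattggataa

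Before the comparisons, 1 array stood apart in median intensity. The median intensity was 173.69 to 181.97 on the other 11 arrays and 199.95 on bTC3 GW8510 replicate 3, which was the highest of its group for 33 of the 36 genes. Its part in the results was measured by leaving it out, and calls of the 36 genes that depended on it are given in each comparison. Another array, aTC1 GW8510 replicate 1, had 703 probe sets at the lower bound, against 951 and 1038 on the other replicates of its group. Its median log2 deviation from the 12-array means was 0.083, beside 0.114 on bTC3 GW8510 replicate 3 and -0.063 to 0.011 on the rest. Leaving out aTC1 GW8510 replicate 1 moved the median log2 fold change of all genes in aTC1 from 0.029 to -0.01. The hormone genes separated the lines, though not as in pure alpha and beta cells. Gcg (glucagon) was at the upper bound of 20000 in aTC1 and had a mean of 6420 in bTC3 with DMSO and 12040 with GW8510, and Ins2 was at the upper bound in bTC3 and had means of 96.8 and 153.1 in aTC1. The delta-cell gene Sst was also high in bTC3 (mean 17820 with DMSO) and low in aTC1 (69.0), whereas Hhex, the other delta-cell marker, had means of 45.9 in aTC1 and 39.86 in bTC3. Ttr, listed as an alpha-cell marker, was higher in bTC3 (at the upper bound) than in aTC1 (mean 8351 with DMSO). Of 4 fibroblast markers, all 4 measured, the summed level was 261.59 to 329.54 in aTC1, 311.74 to 367.23 in bTC3 with DMSO and 450.49 to 562.52 in bTC3 with GW8510, where Col1a2 went from a mean of 156.9 to 292.2 and Col1a1 from 109.3 to 116, and its part in the results was not tested. The summed levels of 3 leukocyte markers lay between 165.62 and 211.93 in all groups. None of the 36 genes was at a bound on any array.

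Proteasome subunit genes changed little with GW8510. By the probe sets used, none of the 32 ring and cap genes moved by 0.5 or more on the log2 scale in either line. Of all genes, 18% did so in aTC1 and 10.7% in bTC3. The median size of the log2 fold change was 0.07 for these 32 genes in aTC1 and 0.08 in bTC3, against 0.18 and 0.16 over all genes. Among the 2847 genes with a mean intensity of at least 1000, a floor chosen after seeing the data because most subunit genes are bright, the medians were 0.235 and 0.185, and 21.5% and 12.3% moved by 0.5 or more. The standard error of a log2 difference had a median of 0.054 for the 32 genes and 0.084 over all genes. By the probe sets used, the largest fold change among the ring and cap genes was 1.25-fold in aTC1 (Psmb2) and 1.28-fold in bTC3 (Psmd8). Another probe set of Psmd11 (mean intensity 1114.5) had larger log2 fold changes of 0.46 in aTC1 and 0.64 in bTC3. At the study's threshold of 2-fold and p under 0.01, none of the 36 genes passed in aTC1 (5.12% of all genes did), in bTC3 (1.94%) or for the difference of response (4.4%).

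**Figure D1:**
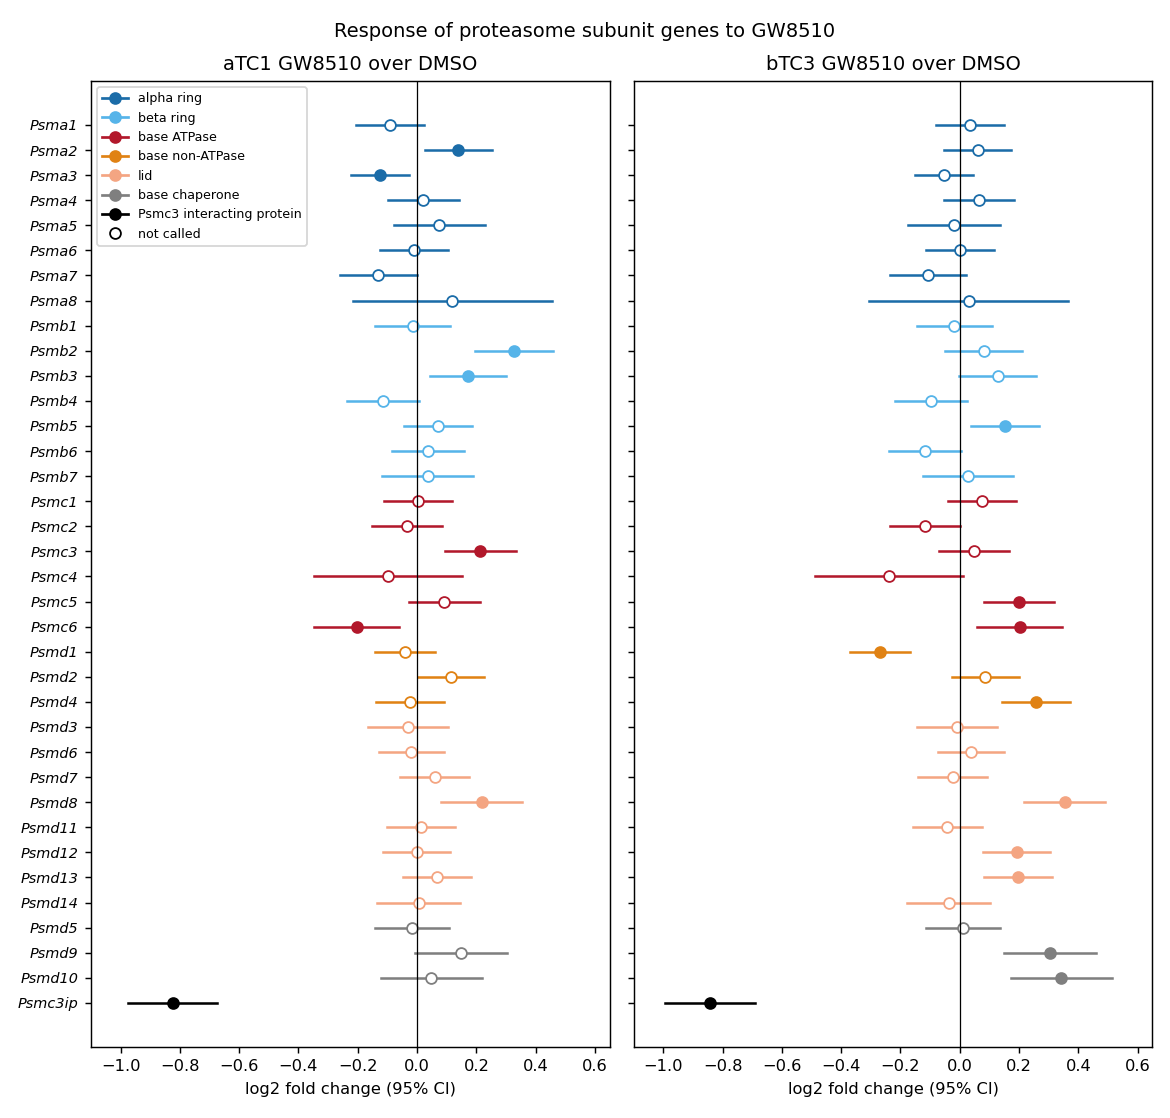
Log2 fold change of GW8510 over DMSO for each of the 36 genes in aTC1 (left) and bTC3 (right), with 95% confidence intervals from limma (n = 3 arrays a group). Filled points are genes at adjusted p under 0.05 over 12255 genes. The ring and cap genes lie between -0.27 and 0.35, and Psmc3ip lies apart at -0.82 and -0.84.

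**Figure D2:**
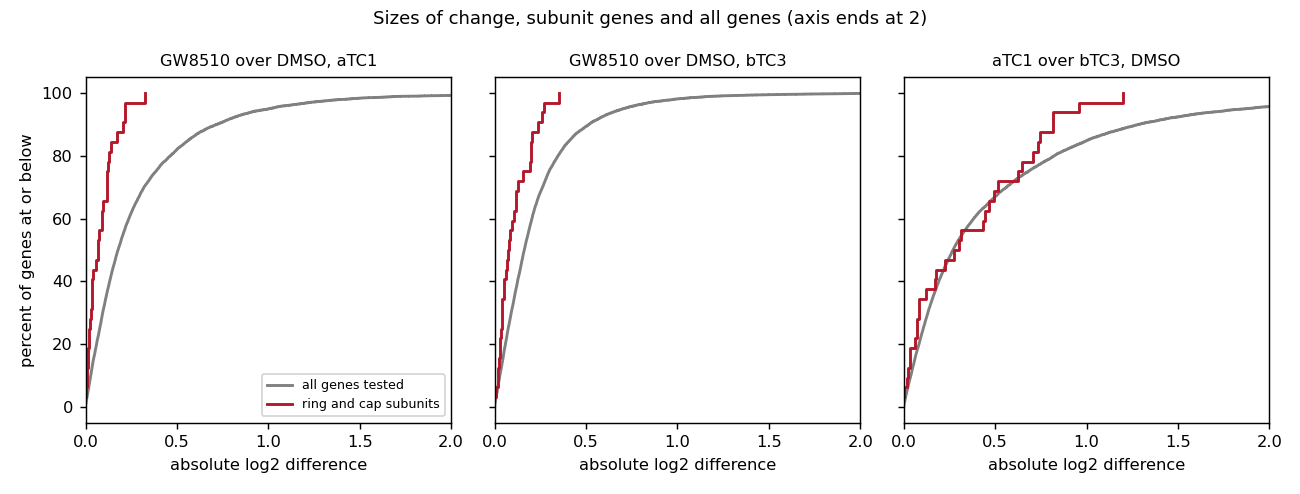
Cumulative percent of genes by the absolute log2 difference, for the 32 ring and cap genes (red) and all 12255 genes (gray), in 3 comparisons. The red line ends before 0.5 in both GW8510 comparisons, whereas between the lines 31.2% of the ring and cap genes lie at 0.5 or more.

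In aTC1, 8 of the 36 genes passed the test (limma, Benjamini-Hochberg adjusted p under 0.05 over 12255 genes), where 41.4% of all genes and 61.9% of the bright genes did. Of these, 5 rose (20.2% of all genes rose) and 3 fell (21.2%). The arrays of the groups did not overlap for 16 of the 36 genes, against 51.4% of all genes. Both shares of these genes lie below those of all genes. The core ring had 3 genes that rose (Psmb2, Psmb3 and Psma2) and 1 that fell (Psma3) of 15, and the cap had 2 that rose (Psmc3 and Psmd8) and 1 that fell (Psmc6) of 17.

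Psmb2, a non-catalytic beta subunit, was measured at 3820, 3800 and 3832 on the DMSO arrays of aTC1 and at 4869, 4799 and 4699 with GW8510. All 3 treated arrays were above the controls, and Psmb2 rose 1.25-fold (log2 fold change 0.33 ± 0.060 SE, limma adjusted p = 0.000757). Psmd8, a lid subunit, had intensities of 2711, 2587 and 2699 with DMSO and 3045, 3152 and 3104 with GW8510. It rose 1.16-fold (log2 0.22 ± 0.062, limma adjusted p = 0.0136), but the call was lost without aTC1 DMSO replicate 2 (adjusted p = 0.0559). Psmc3, an ATPase of the base, stood at 3664, 3798 and 3719 with DMSO and at 4439, 4422 and 4109 with GW8510. Its groups did not overlap and it rose 1.16-fold (log2 0.21 ± 0.054, limma adjusted p = 0.007). Psmb3, another non-catalytic beta subunit, gave 6627, 6383 and 6919 with DMSO and 7600, 7530 and 7309 with GW8510, a rise of 1.13-fold (log2 0.17 ± 0.059, adjusted p = 0.0343). That call was lost without aTC1 DMSO replicate 1 or 2 or aTC1 GW8510 replicate 1 or 2 (adjusted p = 0.075 to 0.13).

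Of the genes that fell in aTC1, the ATPase Psmc6 had intensities of 2330, 2246 and 2339 with DMSO and 1808, 2083 and 2126 with GW8510. Replicate 1 was the lowest of the treated arrays, and the log2 fold change was -0.20 ± 0.065 (limma adjusted p = 0.0238), or -0.13 without that replicate (adjusted p = 0.0696). The call was also lost without aTC1 DMSO replicate 1 (adjusted p = 0.0679) or replicate 3 (0.0702). The other 2 probe sets of Psmc6 had the opposite sign, with log2 fold changes of 0.11 and 0.23, so that the direction for Psmc6 in aTC1 depended on the probe set. The alpha subunit Psma3 was measured at 8054, 8036 and 8095 with DMSO and at 7423, 7449 and 7297 with GW8510. The groups did not overlap, and its log2 fold change was -0.13 ± 0.045 (limma adjusted p = 0.0414). Without bTC3 GW8510 replicate 3, which enters the shared estimate of the spread, the chaperone Psmd9 gained a call in aTC1 (log2 0.15, adjusted p = 0.125 with that array and 0.0424 without it). Psma2, also of the alpha ring, rose by 0.14 ± 0.051 on the log2 scale (adjusted p = 0.0473). Of the 12 fits that each left out 1 array, 9 lost the call for Psma3 and 10 lost that for Psma2.

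In bTC3, 11 of the 36 genes passed the test, against 34.1% of all genes and 52.6% of the bright genes. Of these, 9 rose (19.7% of all genes rose) and 2 fell (14.4%). The arrays did not overlap for 17 genes, against 46% of all genes. The calls lay mostly outside the core ring, where 1 gene of 15 rose (Psmb5) and none fell. The cap had 6 genes that rose (Psmc5, Psmc6, Psmd4, Psmd8, Psmd12 and Psmd13) and 1 that fell (Psmd1) of 17, and of the 3 assembly chaperones Psmd9 and Psmd10 rose. Without bTC3 GW8510 replicate 3, 7 genes rose and 3 fell: Psmb5 (adjusted p = 0.0869) and Psmc6 (0.0819) lost their calls, and Psmb6 fell by 0.16 on the log2 scale (adjusted p = 0.0395). The call of Psmc6 was also lost without any of the 3 DMSO arrays of bTC3 or without bTC3 GW8510 replicate 2 (adjusted p = 0.0587 to 0.0935), and that of Psmb5 in 9 of the 12 fits that left out 1 array. Over all genes the same omission changed the calls from 2414 higher and 1764 lower to 1951 higher and 2010 lower.

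Psmd8 had intensities of 1682, 1645 and 1779 on the DMSO arrays of bTC3 and of 2054, 2106 and 2376 with GW8510. It rose 1.28-fold (log2 0.35 ± 0.062, limma adjusted p = 0.00085), so that Psmd8 rose in both lines. Psmd10, known as gankyrin, a chaperone of the base that also binds cell cycle regulators, was measured at 823.1, 870.5 and 775.4 with DMSO and at 948.1, 1029 and 1161 with GW8510. The groups did not overlap and Psmd10 rose 1.27-fold (log2 0.34 ± 0.078, adjusted p = 0.00487). Psmd9, another chaperone of the base, gave 985.1, 1002 and 939.6 with DMSO and 1181, 1105 and 1338 with GW8510, a rise of 1.23-fold (log2 0.30 ± 0.071, adjusted p = 0.0058). The third chaperone, Psmd5, changed by 0.01 ± 0.057 on that scale and did not pass (adjusted p = 0.911).

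Psmd4, which binds ubiquitin chains, stood at 3061, 3076 and 3154 with DMSO in bTC3 and at 3556, 3642 and 3915 with GW8510. It rose 1.20-fold (log2 0.26 ± 0.052, limma adjusted p = 0.00238), and a second bright probe set of Psmd4 had a log2 fold change of 0.20. With the mean of its 3 probe sets the call was lost (log2 0.17, adjusted p = 0.101). Psmd1, a scaffold of the base, moved the other way. Its intensities were 4209, 4256 and 4232 with DMSO and 3559, 3587 and 3393 with GW8510, all 3 treated arrays below the controls, with replicate 3 the lowest although that array was the brightest of its group. Psmd1 fell to 0.830 of its control level (log2 fold change -0.27 ± 0.046, adjusted p = 0.000741). The remaining calls were smaller: the ATPases Psmc5 and Psmc6 and the lid genes Psmd12 and Psmd13 rose by 0.19 to 0.20 on the log2 scale.

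The gene that changed most in both lines was Psmc3ip, which is no part of the proteasome. Its intensities in aTC1 were 1252, 1257 and 1246 with DMSO and 710.7, 699.2 and 710.0 with GW8510. In bTC3 they were 873.5, 886.2 and 845.1 with DMSO and 438.3, 477.1 and 544.0 with GW8510. Psmc3ip fell to 0.565 of its control level in aTC1 (log2 -0.82 ± 0.069, limma adjusted p = 1.27e-06) and to 0.558 in bTC3 (log2 -0.84 ± 0.069, adjusted p = 3.15e-06). Its partner by name, Psmc3, rose in aTC1 and in bTC3 stood 0.05 ± 0.054 above DMSO in log2 without passing (adjusted p = 0.533).

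Among the proteolytic subunits, Psmb5 carries the chymotrypsin-like site, Psmb6 the caspase-like site and Psmb7 the trypsin-like site. Psmb5 had intensities of 3175, 3065 and 3180 in aTC1 with DMSO and 3362, 3382 and 3149 with GW8510, and of 5454, 5546 and 5563 in bTC3 with DMSO and 6059, 5934 and 6438 with GW8510. The treated arrays of aTC1 overlapped the controls (log2 fold change 0.07, 95% CI -0.04 to 0.18, limma adjusted p = 0.328), and in bTC3 they did not (0.15 ± 0.052, adjusted p = 0.0397). Psmb6 was measured at 1862, 1772 and 1892 in aTC1 with DMSO and at 1872, 1931 and 1860 with GW8510, and in bTC3 at 4060, 4336 and 4311 with DMSO and at 3863, 3731 and 4124 with GW8510. The groups overlapped in both lines, and the log2 fold changes were 0.04 (CI -0.09 to 0.16) and -0.12 (CI -0.24 to 0.00). Psmb7 gave 1969, 1944 and 2303 in aTC1 with DMSO and 2147, 2106 and 2099 with GW8510, and in bTC3 1486, 1584 and 1524 with DMSO and 1476, 1571 and 1640 with GW8510. Its log2 fold changes were 0.04 (CI -0.12 to 0.19) and 0.03 (CI -0.12 to 0.18), so that changes above 1.14-fold lay outside both intervals.

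**Figure D3:**
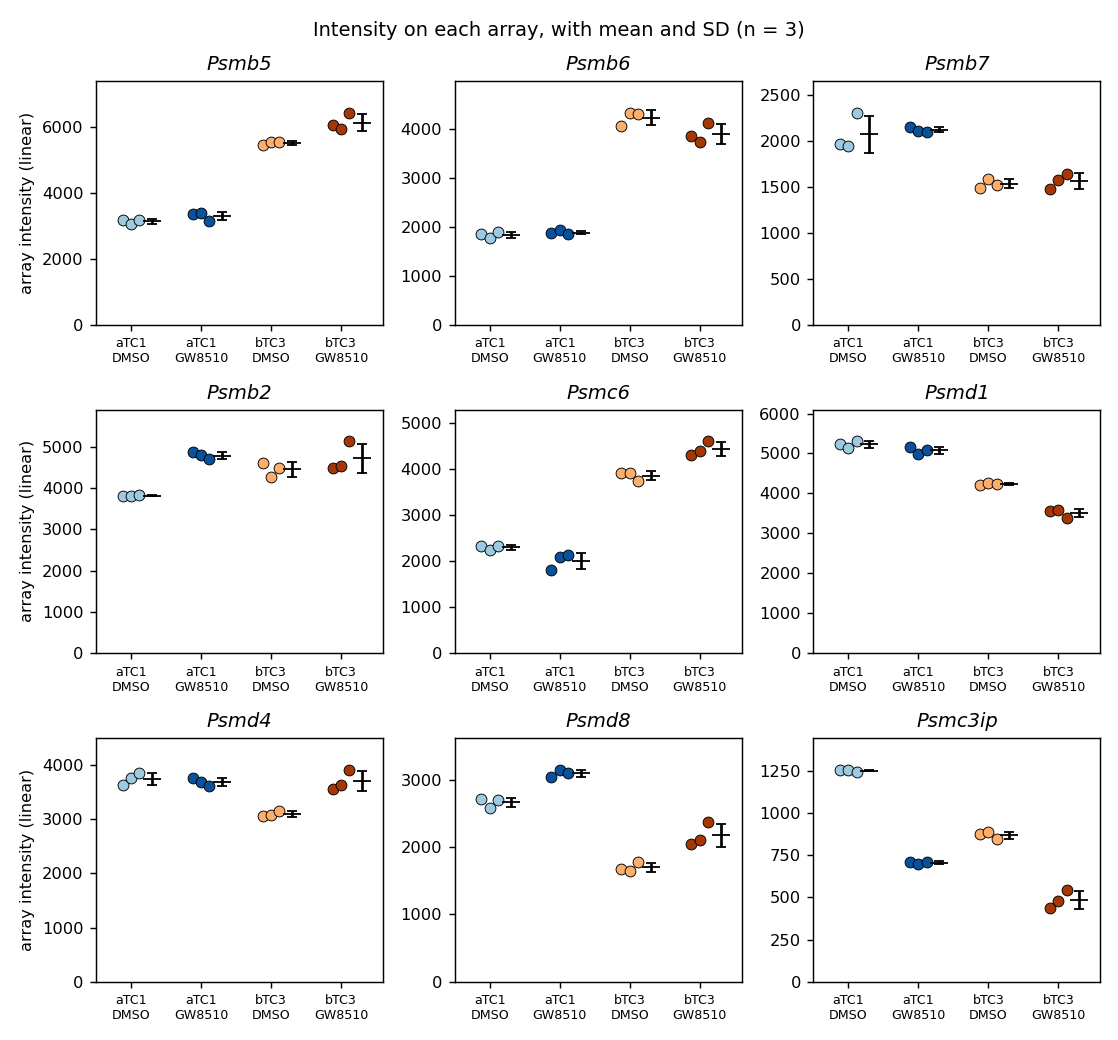
Linear array intensity of 9 genes on each of the 12 arrays, with the mean and SD of each group (n = 3). Psmb5, Psmb6 and Psmc6 are lower in aTC1 than in bTC3 and Psmb7, Psmd1 and Psmd8 are higher, while Psmc3ip is lower with GW8510 in both lines.

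The lid deubiquitinase Psmd14, which removes ubiquitin chains from the substrate, had intensities of 5285, 5407 and 5569 in aTC1 with DMSO and 5475, 5579 and 5274 with GW8510. In bTC3 it had 4946, 4771 and 5271 with DMSO and 4755, 4574 and 5288 with GW8510. The groups overlapped in both lines, with log2 fold changes of 0.01 (CI -0.13 to 0.15) and -0.04 (CI -0.18 to 0.10). Psmd2, the scaffold that receives ubiquitin shuttles, stood at 3634, 3487 and 3363 in aTC1 with DMSO and at 3687, 3942 and 3724 with GW8510, and in bTC3 at 3683, 3686 and 3741 with DMSO and at 3932, 3828 and 4034 with GW8510. The arrays did not overlap in either line, yet neither difference passed the test (log2 0.11, limma adjusted p = 0.0974, and 0.09, adjusted p = 0.228). Psma8, the alpha subunit of testis proteasomes, lay between 31.7 and 52.8 on all 12 arrays, near the lower bound, with no call in any comparison.

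A call in both lines was found for 3 genes: Psmd8 rose in both, Psmc3ip fell in both, and Psmc6 changed in opposite directions. These are 8.33% of the 36, where 21.8% of all genes had a call in both lines. Of the 36, 20 had no call in either line (55.6%, against 46.3% of all genes). The difference of response itself, aTC1 minus bTC3, passed the test for 4 genes, where 28.6% of all genes and 42% of the bright genes did. Psmc6 had the largest difference (log2 -0.41 ± 0.092, limma adjusted p = 0.00563), with the values per array in aTC1 given above and 3918, 3917 and 3746 with DMSO and 4314, 4398 and 4609 with GW8510 in bTC3. Its other probe sets gave differences of -0.01 and 0.08. For Psmd4 the difference was -0.28 ± 0.074 (adjusted p = 0.014), with 3634, 3756 and 3855 on the DMSO arrays of aTC1 and 3759, 3695 and 3617 with GW8510, which overlap. For Psmd1 it was 0.23 ± 0.066 (adjusted p = 0.0215), with 5240, 5136 and 5305 in aTC1 with DMSO and 5166, 4982 and 5090 with GW8510. For Psmb2 it was 0.25 ± 0.085 (adjusted p = 0.0482), with 4620, 4266 and 4492 in bTC3 with DMSO and 4493, 4534 and 5135 with GW8510. Each of the 4 calls was lost under at least 1 alternative: Psmc6 and Psmd4 with the mean of their probe sets, Psmb2 in 10 of 12 fits that left out 1 array, and Psmd1 without aTC1 DMSO replicate 2 (adjusted p = 0.0581). For Psmd4 a second bright probe set gave a difference of -0.25, and a dim one (mean intensity 182.3) gave 0.09. Without bTC3 GW8510 replicate 3, Psmc3 gained a call (log2 0.21, adjusted p = 0.141 with that array and 0.0357 without it).

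Core ring and cap had medians near 0 in both lines. The median log2 fold change in aTC1 was 0.04 for the 15 ring genes and 0.00 for the 17 cap genes, and in bTC3 it was 0.03 and 0.05, against medians of 0.03 and 0.07 over all genes. Ring minus cap was thus 0.0326 in aTC1 and -0.0202 in bTC3. On each array, the mean log2 deviation of the ring genes (without Psma8) and of the cap genes from their 12-array means was also taken. The ring stood at -0.06 ± 0.015 (SD, n = 3) in aTC1 with DMSO and at -0.03 ± 0.015 with GW8510, and at 0.04 ± 0.006 and 0.05 ± 0.069 in bTC3. The cap stood at 0.03 ± 0.009 and 0.05 ± 0.020 in aTC1 and at -0.07 ± 0.013 and -0.02 ± 0.054 in bTC3. Ring minus cap was -0.09 ± 0.012 and -0.09 ± 0.031 in aTC1 and 0.11 ± 0.018 and 0.07 ± 0.015 in bTC3. Since each gene was centered on its own 12-array mean, the sign of these values is set by the centering, and they show only how arrays differ from each other. In bTC3 ring minus cap was 0.1252, 0.1193 and 0.0909 with DMSO and 0.0572, 0.0623 and 0.0856 with GW8510, which do not overlap, and in aTC1 the groups overlapped. This difference was not tested. In bTC3 with GW8510, replicate 3 stood at 0.1303 for the ring and 0.0447 for the cap, above the other replicates, which stood at 0.0080 and 0.0152 for the ring and at -0.0492 and -0.0471 for the cap.

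**Figure D4:**
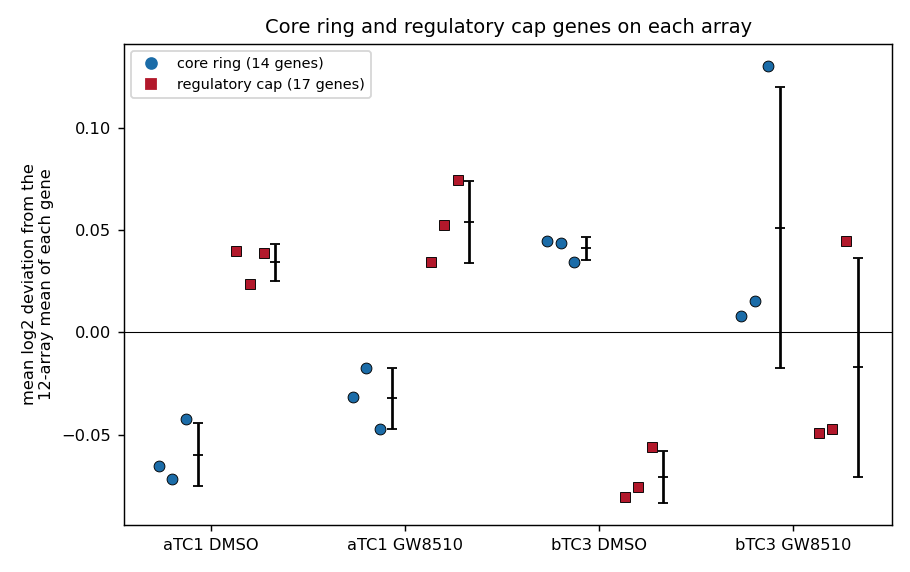
Mean log2 deviation of 14 core ring genes (blue circles) and 17 cap genes (red squares) from each gene's 12-array mean, on each array, with the mean and SD of each group (n = 3). Zero is set by the centering, so only differences between arrays can be read, and bTC3 GW8510 replicate 3 is high in both classes.

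Differences between the lines were larger than those with GW8510, with a median size of 0.29 on the log2 scale for the 32 ring and cap genes with DMSO and 0.27 over all genes. Between the DMSO arrays, 24 of the 36 genes passed the test, against 55.9% of all genes, with 13 higher in aTC1 (29% of all genes) and 11 lower (26.9%). Among the ring and cap genes, 10 of 32 differed by 0.5 or more on the log2 scale (31.2%, against 33% of all genes). Differences went both ways within each subcomplex: all 6 ATPases passed the test, with Psmc1, Psmc4 and Psmc5 higher in aTC1 and Psmc2, Psmc3 and Psmc6 lower, and of 8 ring genes with a call 3 were higher and 5 lower. The share of calls among the bright genes was 80.5%, and 45.2% of them differed by 0.5 or more. The arrays did not overlap for 27 of the 36 genes (65.9% of all genes), and 1 gene, Psmb6, passed the 2-fold threshold (15.2% of all genes). Centering each array on its median moved the median log2 difference of all genes from 0.048 to 0.136 and the calls to 16 higher and 10 lower.

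Psmb6 differed most. It was 2.30-fold lower in aTC1 than in bTC3 with DMSO (log2 difference -1.20 ± 0.056, limma adjusted p = 1.97e-09), from the values per array above, with no overlap. Psmd6, a lid subunit, was measured at 2776, 2720 and 2905 in aTC1 and at 5494, 5341 and 5465 in bTC3, 1.94-fold lower in aTC1 (log2 -0.96 ± 0.051, adjusted p = 6.72e-09). A second probe set of Psmd6 gave -2.27 and the mean of its probe sets -1.61, both beyond the difference of Psmb6. Psmc6 gave -0.74 by the probe set used and -1.27 and -1.15 by its dimmer others. Psmb5 was 1.76-fold lower (log2 -0.81 ± 0.052, adjusted p = 3.73e-08). The third proteolytic subunit, Psmb7, was higher in aTC1 (log2 0.43 ± 0.070, adjusted p = 0.000163), so that the genes of the proteolytic sites did not differ in the same direction.

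On the other side, Psmd12, a lid subunit, had intensities of 3954, 4021 and 3958 in aTC1 with DMSO and 2286, 2263 and 2240 in bTC3. It was 1.76-fold higher in aTC1 (log2 0.81 ± 0.052, limma adjusted p = 3.6e-08). Psmd3, also of the lid, stood at 2549, 2549 and 2557 in aTC1 and at 1494, 1453 and 1672 in bTC3, 1.66-fold higher (log2 0.73 ± 0.062, adjusted p = 4.88e-07). The ATPase Psmc5 gave 5156, 5144 and 5278 in aTC1 and 3173, 3127 and 3261 in bTC3, 1.63-fold higher (log2 0.70 ± 0.054, adjusted p = 2.09e-07). None of these 3 overlapped between the lines. Psmd9 and Psmd10, the chaperones that rose with GW8510 in bTC3, were lower in aTC1 by 0.51 and 0.45 on the log2 scale, and Psmd5 was higher by 0.31, all 3 with a call. With the mean of its probe sets, the call for Psmd9 was lost (adjusted p = 0.136).

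The same comparison was made on the GW8510 arrays, which share none with the DMSO arrays. Both comparisons came from a single fit with a shared estimate of the spread of each gene, so their calls are not independent. With GW8510, 23 of the 36 genes were called, against 58% of all genes, with 12 higher in aTC1 (27.6% of all genes) and 11 lower (30.5%). The share among the bright genes was 82.1%. The arrays did not overlap for 23 of the 36 (59.4% of all genes), and 3 passed the 2-fold threshold (16.4% of all genes). Centering moved the median log2 difference of all genes from 0.004 to 0.112 and the calls to 17 higher and 9 lower. Without bTC3 GW8510 replicate 3, Psmc1 gained a call (adjusted p = 0.129 with it and 0.00732 without it), and Psmc3 (0.0332 and 0.0831) and Psmd13 (0.028 and 0.0659) lost theirs. Psmc3 also lost its call without aTC1 GW8510 replicate 3 (limma adjusted p = 0.126). Psmd13 also lost its call without aTC1 GW8510 replicate 2 (0.0761) or 3 (0.0522) or bTC3 GW8510 replicate 2 (0.0586). Without aTC1 GW8510 replicate 1, Psmd7 gained a call (limma adjusted p = 0.0789 with it and 0.0298 without it) and Psmd14 lost its call (0.0471 and 0.085). The call of Psmd14 was kept in only 2 of the 12 fits that left out 1 array. Of the 36, 21 had a call with the same sign on both sets of arrays (58.3%, against 43.5% of all genes) and 0 had calls of opposite sign (2.55% of all genes). As a description over the 36 genes, which share their arrays, the log2 differences of the lines with DMSO and with GW8510 had a Pearson correlation of 0.963 and a Spearman correlation of 0.951, beside 0.872 and 0.793 over all genes. By the probe sets used, Psmc6 (log2 -1.15 ± 0.065), Psmb6 (-1.05 ± 0.056) and Psmd6 (-1.01 ± 0.051) were the furthest below, and Psmc4 (0.77 ± 0.114) and Psmd3 (0.71 ± 0.062) were the furthest above. A second probe set of Psmd6 gave -1.86. Psmd4, higher in aTC1 with DMSO (0.28 ± 0.052), was at -0.00446 ± 0.052 with GW8510 (adjusted p = 0.955).

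**Figure D5:**
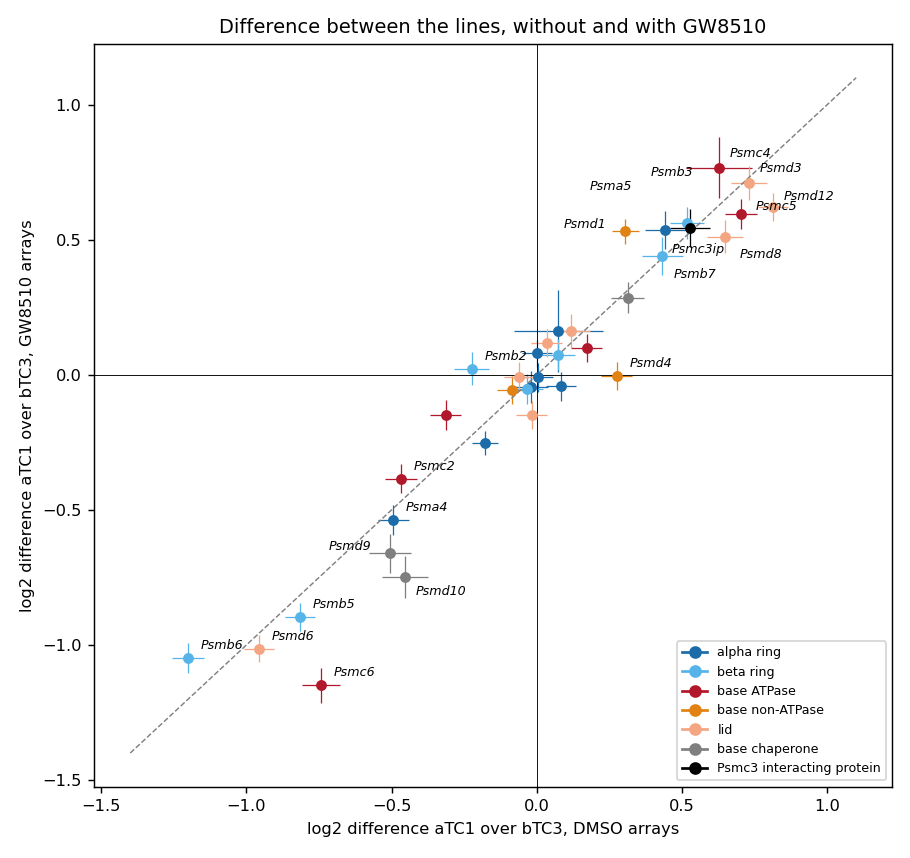
Log2 difference aTC1 over bTC3 of each of the 36 genes on the DMSO arrays (horizontal) and on the GW8510 arrays (vertical), with standard errors, and the line of equal values (dashed). Most genes lie near the dashed line, Psmb6, Psmd6 and Psmb5 far below 0 and Psmd12 and Psmd3 far above, while Psmc6, Psmd10, Psmd4, Psmb2 and Psmd1 lie further off it.

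Of the 36 genes, 17 had more than 1 probe set with a single symbol, 29 other probe sets in all. In aTC1, 1 of the 3 other probe sets of 2 called genes had the sign of the call, and in bTC3 6 of 6 (4 genes) did. For the difference of response 2 of 4 (2 genes) did, between the lines with DMSO 9 of 12 (9 genes) and with GW8510 9 of 10 (8 genes). Those of opposite sign with DMSO were dim, with mean intensities of 29.9 (Psma5), 182.3 (Psmd4) and 126.5 (Psmd9). Psmd11, a lid subunit, gave log2 fold changes of 0.01 and -0.04 with GW8510 by the probe set used, and of 0.46 and 0.64 by 1 of its 5 others. Between the lines with DMSO it gave -0.06 by the probe set used and 0.55 by that other one. A second probe set of Psmd6 was also lower in aTC1 with DMSO, by a log2 difference of -2.27.

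Genes other than the subunits that vary most like the ring mean over the 12 arrays were Slc22a21 (Pearson r = 0.953), Mapk9 (0.951), Rcc1 (0.949), Ntrk3 (0.948) and Fam110a (0.944), given as a description, since the arrays form 4 groups. Slc22a21 lay near the lower bound of 20, with group means of 21.3 to 27.8. The ring mean itself varied with an SD of 0.058 on the log2 scale. Not all ring genes varied together over the 12 arrays: the lowest correlation between a pair of them was -0.946. That value is of 1 extreme pair and includes the differences between the lines.

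Other genes of the pathway were taken from a list of 46, of which 36 were measured and the rest were not analysed here. In aTC1 11 of the 36 rose and 6 fell, and in bTC3 12 rose and 5 fell, which is 47.2% in each line. The shares were 41.4% and 34.1% of all genes, and 61.9% and 52.6% of the genes with a mean intensity of at least 1000. The list holds genes on both sides of that floor. Psmf1, an inhibitor of the core particle, rose in both lines. Its intensities were 531, 522 and 523 in aTC1 with DMSO and 748, 784 and 854 with GW8510, and 728, 756 and 730 in bTC3 with DMSO and 1064, 1125 and 1209 with GW8510. The log2 fold changes of Psmf1 were 0.60 (limma adjusted p = 9.3e-06) and 0.62 (adjusted p = 1.6e-05), but with the mean of its probe sets they were 0.28 (adjusted p = 0.00299) and 0.15, where the call in bTC3 was lost (adjusted p = 0.0854). Among the assembly factors of the core, Psmg4 rose by 0.48 and 0.36 on the log2 scale and Psmg2 fell by 0.35 and 0.33. Pomp, the maturation factor of the core, had 0.15 in bTC3 (adjusted p = 0.04) and 0.04 in aTC1 (adjusted p = 0.558). The call of Pomp in bTC3 was lost in 10 of 23 alternatives, among them leaving out any of the 3 DMSO arrays of bTC3 or bTC3 GW8510 replicate 2 or 3 (adjusted p up to 0.115).

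Among the activators, Psme1 of the interferon-inducible activator fell in aTC1 (log2 -0.20, limma adjusted p = 0.0171) and rose in bTC3 (0.22, adjusted p = 0.0149), a difference of -0.42 (adjusted p = 0.00285). The call in aTC1 was lost without aTC1 DMSO replicate 3 (0.0742) or GW8510 replicate 2 (0.073) and that in bTC3 without bTC3 DMSO replicate 2 (0.0676), while the difference passed in all 22 alternatives. It stood at 1471, 1430 and 1559 with DMSO and 1339, 1239 and 1303 with GW8510 in aTC1, and at 3044, 2809 and 3079 and at 3337, 3434 and 3596 in bTC3. Of the 3 interferon-inducible subunits, Psmb8 had a mean of 107.5 ± 10.1 (SD, n = 3) in aTC1 with DMSO and of 1498 ± 92.6 in bTC3 (log2 difference -3.80, adjusted p = 2.66e-09). Psmb9 fell with GW8510 in bTC3, from 454, 407 and 440 with DMSO to 221, 247 and 250 with GW8510 (log2 -0.86, adjusted p = 0.000129), and Psmb10 rose in aTC1, from 456, 442 and 447 to 624, 564 and 593 (log2 0.40, adjusted p = 0.00314).

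Of 9 regulators of proteasome genes measured, 4 rose and 2 fell in aTC1 (41.4% of all genes had a call), and 2 rose in bTC3 (34.1%). Nfe2l1 was measured at 1338, 1349 and 1281 in aTC1 with DMSO and at 931, 905 and 867 with GW8510, and in bTC3 at 1070, 1003 and 1050 with DMSO and at 1166, 1104 and 1242 with GW8510. It fell in aTC1 (log2 -0.55, limma adjusted p = 8.6e-06) and had 0.17 in bTC3 (adjusted p = 0.0422), a difference of -0.72 (adjusted p = 4.3e-05). The call of Nfe2l1 in bTC3 was lost in 11 of 23 alternatives, among them leaving out bTC3 DMSO replicate 2 (0.142) or bTC3 GW8510 replicate 3 (0.109), while the fall in aTC1 and the difference passed in all that were run. NRF1 is controlled largely at the protein level, which arrays do not measure. Nfe2l2, encoding the oxidative stress factor NRF2, rose in aTC1 from 1250 ± 44.4 to 1968 ± 165 (SD, n = 3; log2 0.65, adjusted p = 9.83e-06) and in bTC3 stood 0.02 above DMSO in log2 without passing (adjusted p = 0.818).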

How the data were processed

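The values are array intensities on a linear scale, deposited by the authors for 12 Affymetrix mouse arrays with 22690 probe sets. Per the labels' processing notes they were made with RMA, with no version given, and they lie between 20 and 20000. Here log2 was taken with no pseudocount. Control probe sets (64) and those with several symbols (691) or none (1555) were left out, as were 330 at a bound on all arrays. Each gene kept its probe set of highest mean, leaving 12255 genes.

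A single model of group means with contrasts (limma 3.58.1, eBayes, R 4.3.3) covered the 12 arrays, with 8 residual and 3.536 prior degrees of freedom. Calls are at Benjamini-Hochberg adjusted p under 0.05 over all genes. P-values rest on the spread between replicate samples within groups, pooled over all groups and moderated over all genes. The number of arrays limits the precision. The scripts were tested on simulated data.

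Values on every array are given for the proteolytic subunits, Psmd14, Psmd4 and Psmd2, for up to 4 genes each way with the largest called, non-overlapping response in each line, up to 3 each way for the difference of response and for the difference of the lines, and for Psmc3ip. Psma8 is given by its range. The subunit genes and lists were chosen with earlier results of these data known. Treated samples were grouped by their titles, which all name GW8510, although some source names carry other compound numbers. Alternatives were other normalizations, probe sets, filters, scales, variance models, a replicate block, a fold threshold and leaving out each array.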

Additional observations from a re-analysis of the deposited data

Results flagged for a closer look

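The responses to GW8510 in aTC1 and bTC3 differed by the test of the difference itself (limma, adjusted p under 0.05) for 4 subunit genes and 10 other genes of the pathway list, where 28.6% of all genes differed by the same test and 27.8% of the pathway list did. They are given here as log2 response in aTC1 minus that in bTC3. Among the subunit genes, Psmc6 had -0.41, Psmd4 -0.28, Psmb2 0.25 and Psmd1 0.23. The largest pathway difference was that of the interferon-inducible subunit Psmb9 (0.83). Psmb9 was dim in aTC1, with means of 128.2 with DMSO and 127.0 with GW8510, below the median intensity of every array. Among the regulators, Nfe2l1 had -0.72, Nfe2l2 0.63, Stat3 0.51, and of the CCAAT-binding NF-Y subunits Nfyb had 0.37 and Nfyc -0.28. Among the activators, Psme1 had -0.42 and Psme3 -0.27. The nuclear import factor of the proteasome, Akirin2, had -0.26, and the cap-bound ubiquitin ligase Ube3c had 0.28. Of these pathway differences, the call was lost for Psme3 in 12 of 22 alternatives (adjusted p up to 0.457), for Nfyc in 11 (up to 0.107), for Ube3c in 4 (up to 0.0642) and for Akirin2 in 2 (up to 0.522).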

How the results depend on the processing

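A change of sign was counted only where the gene had a call in the main fit or in the alternative. For the 36 subunit genes and the measured pathway genes, called or not, the call held in most alternatives. Several calls near the threshold did not. Psma2 in aTC1, Psmb5 in bTC3 and Psmd14 between the lines with GW8510 were each called in 11 of 23 alternatives, and the difference of Psmb2 in 10 of 22. The count of the 36 genes with a call in aTC1 was 8, and it was 15 with array weights, 4 with the replicate block, 0 at the study's threshold of 2-fold and p under 0.01 (5.12% of all genes passed), and 4 to 9 with 1 array left out. In bTC3 it was 11, with 0 at that threshold (1.94% of all genes) and 9 to 12 with 1 array left out. For the difference of response it was 4, with 2 for the mean of probe sets, 7 with a trend and robust variance, 7 with array weights, 2 with the block, 0 at the 2-fold threshold and 2 to 5 with 1 array left out. Between the lines with DMSO it was 24, with 1 at the 2-fold threshold and 24 in every fit with 1 array left out, and with GW8510 it was 23, with 3 and 20 to 23. Ring minus cap in bTC3 was -0.0202, -0.0482 after cyclic loess and -0.0448 to -0.00854 with 1 array left out, and in aTC1 0.0326, with 0.00689 to 0.0406. The causes were not tested.

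Replicate numbers did not pair the arrays (correlations of same-numbered arrays -0.138 to 0.14), and with the block the counts in bTC3, between the lines with DMSO and with GW8510 were 9, 24 and 21. Called under every alternative fit at the adjusted threshold were 3 of 8 genes in aTC1 (Psmb2, Psmc3 and Psmc3ip), 8 of 11 in bTC3, 0 of 4 for the difference, 21 of 24 with DMSO and 20 of 23 with GW8510.

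The split of higher to lower calls in aTC1 was 5 to 3, and it was 4 to 6 after quantile normalization and 6 to 2 after centering on the median. In bTC3 it was 9 to 2, and 8 to 4 after quantile normalization. For the difference it was 2 to 2, and 1 to 3 after centering and 4 to 2 after cyclic loess. With GW8510 between the lines, centering gave 17 to 9 (over all genes 4492 to 3231, against 3377 to 3734). Where the main fit or the alternative had a call, signs turned in a few cases. They turned for Psmc6 in aTC1 with the mean of probe sets (0.0435, limma adjusted p = 0.777) and Vcp in aTC1 likewise (-0.18, 0.181). That of Ubqln1 turned with probe sets other than the _x_at and _s_at designs (0.11, 0.267 in aTC1 and 0.28, 0.00915 in bTC3). Psmd11 between the lines turned to 0.19 (0.0194) and 0.31 (0.000371) with DMSO and to 0.16 (0.0458) and 0.31 (0.000358) with GW8510 by these settings. Changes of sign without a call in either fit are not listed. Examples are Psmd6 in bTC3 (0.04, lowest alternative -0.15) and Rad23b in aTC1 (0.09, lowest -0.19).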
